A study of Mus musculus with 9 samples.

Results

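The genes described here encode the proteins of the cytosolic ribosome. They were taken as the protein-coding genes whose symbol is Rpsa, Rplp0, Rplp1 or Rplp2, or Rpl or Rps followed by a number and an optional suffix of the a, l or x kind. Kinases of the Rps6k family, binding proteins such as Rps19bp1 and pseudogenes were left out. This rule found 84 of the 52408 genes joined to the annotation, 32 of the small subunit, 49 of the large subunit and 3 of the stalk. Of these, 81 passed the low-value filter (at least 1 TPM in at least 3 libraries) and were tested. The other three, Rpl10l, Rpl39l and Rpl3l, stayed under 0.2 TPM in all 9 libraries.

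Total RNA of MIN6 cells, a mouse insulinoma line that secretes insulin and serves as a model of the pancreatic beta cell, was sequenced in 3 groups of 3 libraries. The control group was untransfected MIN6 cells. The overexpression group was MIN6 cells overexpressing Nr4a1, an orphan nuclear receptor that acts as an inducible transcription factor. The EGCG group was MIN6 cells treated with EGCG (epigallocatechin gallate, a catechin of green tea) upon Nr4a1 overexpression, so it carries the overexpression as well. No empty-vector or EGCG-only group is among the samples used here, so transfection and Nr4a1 cannot be told apart, and the sources used here give neither the dose nor the time of EGCG. All libraries carry the same batch label.

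A cytosolic ribosome joins a small subunit, which reads the mRNA, to a large subunit, which forms the peptide bond and lets the nascent chain out through a tunnel. The P-stalk of the large subunit recruits elongation factors. Each protein is needed in about the same number of copies, except for the stalk proteins P1 and P2, and most are made from very abundant mRNAs that begin with a cytosine and a run of pyrimidines, the 5′ terminal oligopyrimidine (TOP) motif. Through this motif mTORC1 controls how well these mRNAs are translated. Beta cells, which make large amounts of insulin, depend heavily on translation.

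The start sites show how far the annotated genes carry that motif. Promoter sequence was found for 64 of the 84 genes in RefSeq (build GRCm38.p6). A run was counted where a C within 5 bases of the annotated start was followed by at least 4 more C or T. Of the 64 genes 29 (45.3%) had such a run, against 21.2% of the 27025 genes in the table. The windows below run from 10 bases before to 20 bases after the start, 5′ to 3′ on the gene's strand, with the run in capitals. They are shown for 4 genes that were lower with Nr4a1 overexpression and for a pair that were higher, because genes with the motif were found in both directions.
Rpl35 (lower; chr2:39005112-39005141, minus strand): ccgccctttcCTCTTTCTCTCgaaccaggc
Rpl15 (lower; chr14:18270967-18270996, minus strand): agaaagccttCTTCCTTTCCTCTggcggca
Rpl27a (lower; chr7:109519185-109519214, plus strand): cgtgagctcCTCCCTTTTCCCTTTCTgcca
Rps6 (lower; chr4:86857348-86857377, minus strand): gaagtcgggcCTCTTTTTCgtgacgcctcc
Rps18 (higher; chr17:33955646-33955675, minus strand): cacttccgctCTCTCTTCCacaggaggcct
Rpl22l1 (higher; chr3:28805498-28805527, plus strand): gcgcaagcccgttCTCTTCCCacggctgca

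In overexpression against control, 6 of the 29 genes with a run were higher and 9 lower, with a median log2 fold change of -0.00074. Of the 32 tested genes with RefSeq sequence and no run, 15 were higher and 7 lower, with a median of 0.21. Those called were 51.7% and 68.8%, against 59.5% of all genes tested (38.2% higher and 21.3% lower, median 0.10). The difference between these sets was not tested, nor were the counts repeated under other scalings. A second motif, CCGGAAG, the core that ETS factors bind, was searched on both strands of the 300 bases around the start. It was found in 26 of the 64 genes (40.6%), against 9.93% of all genes in the table. These matches describe the letters of an annotated window, and a gene without one may start elsewhere.

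Values are TPM, the length-corrected share of a library's transcripts, as the authors deposited them and summed here per gene. How deeply each library was sequenced is unknown, since TPM does not keep it. The labels do not say whether the 3 libraries of a group came from separate cultures, so the p-values cover only the spread among these libraries, which may be technical. Nr4a1 itself was at 0.63, 0.78 and 0.76 TPM in control, 128.3, 122.5 and 165.2 TPM under overexpression and 46.3, 60.9 and 54.5 TPM with EGCG. The summed level of 10 beta cell markers was 4684 to 4762 TPM in control, 6234 to 6544 TPM under overexpression and 4521 to 4904 TPM with EGCG, with 1 of the 10 under 1 TPM. Most of the difference lay in Ins1, with means of 785, 2030 and 724 TPM in the 3 groups, and Iapp, with 2625, 3248 and 2994 TPM. Means went the other way for markers such as Chga (1114, 861 and 793 TPM) and Mafa (62.9, 38.7 and 33.3 TPM). Summed markers of delta, duct, fibroblast, macrophage and endothelial cells were under 1 TPM in every library, and 4 acinar markers summed to 3.76 to 5.34 TPM. The 4 alpha cell markers summed to 327 to 345, 778 to 864 and 305 to 340.2 TPM in the 3 groups, nearly all of it Gcg. As in any bulk sample, fewer cells of a type and less RNA per cell cannot be told apart.

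Control replicate 3 stood apart from the other controls. Of the 3 controls it was the nearest to the overexpression mean in 55 of the 81 tested genes, against 14 and 12 for replicates 1 and 2. Its median distance from the mean of the other controls was 0.18 on the log2 scale, against 0.10 and 0.085. The summed level of 1986 olfactory, vomeronasal and trace amine receptor genes, which are known from sensory neurons, was 131.3, 109.6 and 66.5 TPM in control, 6.82, 5.75 and 6.23 TPM under overexpression and 12.2, 10.3 and 15.4 TPM with EGCG. Their part in the results below was not tested, and results that rest on control replicate 3 are given with and without it.

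The ribosomal protein mRNAs were abundant and close to each other in level. The median of their mean TPM over 9 libraries was 206.9, and 73 of the 81 lay between 100 and 500 TPM. Rpl41, which encodes a very short basic peptide of the large subunit, was the most abundant at 799 TPM, followed by Rpl13a, Rps27, Rplp1 and Rps29. In all 5 genes lay under 100 TPM, Rpl22l1, Rpl7l1, Rpl29, Rps27l and Rpl35a, the lowest at 18.4 TPM, and 3 of these are paralogs of an abundant member. Across the 81 genes the order of mean TPM had a Spearman correlation of 0.81 between control and overexpression, 0.93 between control and EGCG and 0.90 between overexpression and EGCG. These are descriptions across genes that share libraries.

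Together the 84 genes took 17792, 18267 and 19889 TPM in control, 19611, 18815 and 18996 TPM under overexpression and 19396, 19210 and 19250 TPM with EGCG. The sum was highest in control replicate 3 and lowest in the other controls, and the overexpression and EGCG libraries overlapped. As a share of the TPM of nuclear protein-coding genes, the sum was 8.23%, 8.40% and 9.37% in control, 8.50%, 8.33% and 8.32% with overexpression and 9.58%, 9.27% and 9.31% with EGCG. On this scale the EGCG libraries lay above the overexpression libraries without overlap, while control replicate 3 lay among the EGCG libraries. All nuclear protein-coding genes together took up 21.5% ± 0.267 of control TPM, 22.8% ± 0.243 under overexpression and 20.6% ± 0.261 with EGCG (SD, n = 3 each). Genes of small noncoding RNA and rRNA types took up 53.8% ± 0.397, 56.0% ± 0.223 and 56.5% ± 0.505 (SD, n = 3 each). The control libraries lay below both other groups without overlap. What part this plays in the results under different scalings was not tested. The ratio of small to large subunit TPM was 0.673, 0.674 and 0.699 in control, 0.684, 0.696 and 0.696 with overexpression and 0.736, 0.746 and 0.723 with EGCG. It was highest in the EGCG libraries, which did not overlap the other groups.

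**Figure D1:**
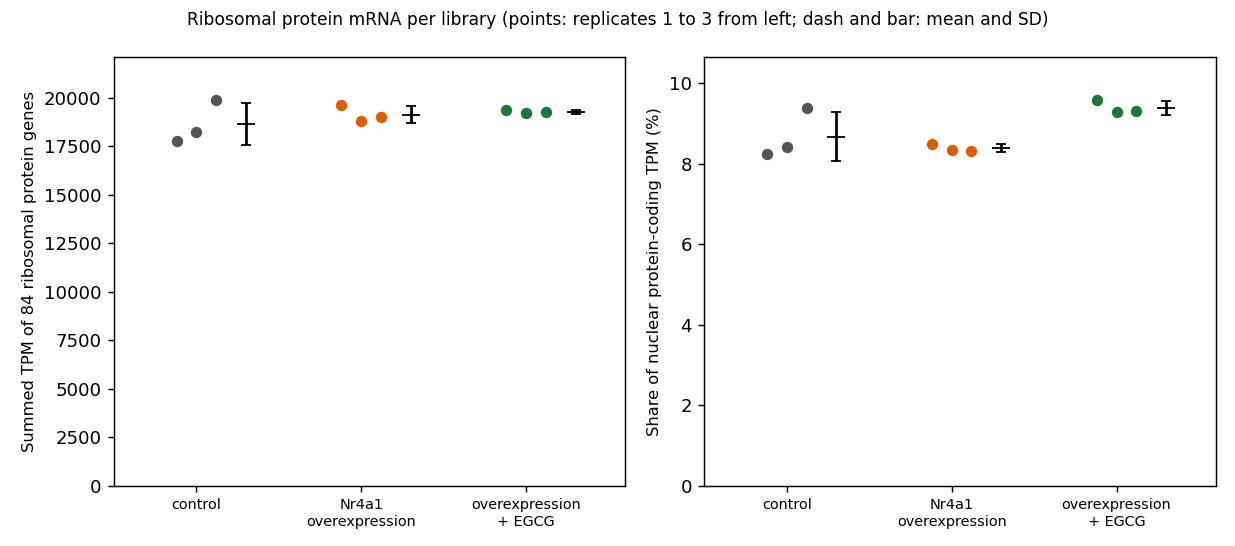
Summed TPM of the 84 ribosomal protein genes (left) and their share of nuclear protein-coding TPM in percent (right) for each library, with the group mean and SD beside the points (n = 3). The sum overlaps between groups, and the share is 9.27% to 9.58% with EGCG against 8.32% to 8.50% with overexpression, with control replicate 3 at 9.37%.

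The first comparison asked how the cells with Nr4a1 overexpression differed from untransfected cells. Ribosomal protein genes were called in both directions. Of the 81 tested, 32 were higher and 20 lower with overexpression, and 29 did not pass the test (limma on log2(TPM + 1), two-sided, Benjamini-Hochberg adjusted p under 0.05). That is 64.2% of them, against 59.5% of all 11950 genes tested, with 38.2% of all genes higher and 21.3% lower, so the share called was near the background. Their median log2 fold change was 0.14, against 0.10 for all genes, and single genes ran from -1.08 to 1.27. Of the small subunit genes 14 were higher and 5 lower of 32, of the large subunit genes 18 were higher and 15 lower of 46, and none of the 3 stalk genes passed, 1 of them with an unadjusted p under 0.05. The libraries did not overlap between the groups for 60 of the 81 genes, against 65% of all genes tested. The split between directions depended on the scaling. Median-ratio scaling, which took the median of all genes from 0.10 to -0.0020, gave 17 higher and 27 lower, quantile normalization 25 higher and 24 lower, and the TPM of nuclear protein-coding genes alone 22 higher and 26 lower. Without control replicate 3 it was 44 higher and 20 lower. The median of all genes was 0.010 under quantile normalization and 0.034 on nuclear protein-coding genes alone. The share of all genes called was not counted under these other settings.

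The lowest of all was Rpl22, an RNA-binding protein of the large subunit that mice can live without. Its level was 326, 319 and 246 TPM in control, 143, 137 and 138 TPM under overexpression and 183, 183 and 201 TPM with EGCG. Each overexpression library lay under each control and each EGCG library. The difference from control was -1.08 ± 0.102 on the log2 scale (SE; limma adjusted p = 2.77e-05). Its paralog Rpl22l1 was the highest. Rpl22l1 was at 14.4, 15.5 and 20.8 TPM in control, 39.1, 42.0 and 43.4 TPM under overexpression and 29.2, 28.5 and 19.3 TPM with EGCG. Overexpression was again set apart from the other groups, with a log2 fold change of 1.27 ± 0.167 (SE; limma adjusted p = 0.000198), while EGCG replicate 3 fell within the control range.

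Among the other genes that fell, Rps23, which sits at the decoding centre of the small subunit, was at 431, 410.1 and 449 TPM in control, 259, 259.7 and 266 TPM under overexpression and 415, 402 and 436 TPM with EGCG. The control and EGCG libraries overlapped and the overexpression libraries lay far below both (log2 fold change against control -0.71 ± 0.0581 SE; limma adjusted p = 1.23e-05). Rps24, a small subunit protein with several splice forms, was at 419, 431 and 404 TPM in control, 275, 245 and 253 TPM under overexpression and 318, 314 and 379.8 TPM with EGCG. In Rps24 the 3 groups stood apart from each other, with a log2 fold change against control of -0.70 ± 0.0835 (SE; limma adjusted p = 0.000111).

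Rpl35, which lies near the exit of the peptide tunnel, was at 175, 181 and 153 TPM in control, 102, 91.2 and 87.3 TPM under overexpression and 102, 104 and 121 TPM with EGCG. Both groups with Nr4a1 lay below control, and the log2 fold change was -0.85 ± 0.0933 for overexpression (SE; limma adjusted p = 6.42e-05). The share of Rpl35 TPM outside protein-coding transcripts was 17.9% ± 4.94 in control, 5.16% ± 1.97 under overexpression and 6.03% ± 1.00 with EGCG (SD, n = 3 each). Coding transcripts of Rpl35 thus fell less than its gene sum, though the calls of both groups against control were kept on them alone. Rpl23, at the face where the subunits meet, was at 228, 228 and 205 TPM in control, 137, 129.8 and 128 TPM under overexpression and 179, 173 and 199 TPM with EGCG, a log2 fold change against control of -0.74 ± 0.0706 (SE; limma adjusted p = 2.89e-05). In Rpl15, a large subunit protein that binds rRNA, the controls were at 273, 291 and 279 TPM, the overexpression libraries at 186, 184 and 185 TPM and the EGCG libraries at 222, 211 and 238 TPM. The spread within overexpression was 1.02 TPM (SD, n = 3), and the log2 fold change against control was -0.60 ± 0.0584 (SE; limma adjusted p = 3.23e-05). The share of Rpl15 TPM outside protein-coding transcripts was 49.4% ± 4.78 in control and 32.5% ± 2.17 under overexpression (SD, n = 3 each). Its coding transcripts thus fell less than the gene sum, though the call was kept on them alone. Another 13 of the genes that fell did so by 0.18 to 0.59 on the log2 scale. They include Rps6, the small subunit protein that S6 kinase phosphorylates.

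Of the genes that rose, Rpl41 was at 539, 552 and 764 TPM in control, 1009, 959 and 1002 TPM under overexpression and 823, 765 and 776 TPM with EGCG. Control replicate 3 lay just under the lowest EGCG library, and overexpression was higher than both (log2 fold change against control 0.70 ± 0.123 SE; limma adjusted p = 0.00107). Rpl7l1, a paralog of Rpl7, was at 13.3, 13.1 and 18.3 TPM in control, 25.0, 22.4 and 26.4 TPM under overexpression and 15.7, 15.9 and 15.8 TPM with EGCG. Its log2 fold change against control was 0.70 ± 0.115 (SE; limma adjusted p = 0.000742), and the EGCG libraries lay inside the control range. Rps18, of the small subunit head, was at 123, 128 and 183 TPM in control, 220.4, 224 and 227 TPM under overexpression and 186, 179.7 and 162 TPM with EGCG. Its log2 fold change against control was 0.65 ± 0.133 (SE; limma adjusted p = 0.00255), with control replicate 3 inside the EGCG range.

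Rpl10a, which forms the L1 stalk where spent tRNA leaves, was at 119, 125 and 156 TPM in control, 198, 204 and 205 TPM under overexpression and 156, 152 and 155 TPM with EGCG. The log2 fold change against control was 0.61 ± 0.0907 (SE; limma adjusted p = 0.000419). Rpl13 of the large subunit was at 236, 233 and 283 TPM in control, 364, 348 and 346 TPM under overexpression and 234, 239 and 184 TPM with EGCG. It rose by 0.50 ± 0.111 on the log2 scale against control (SE; limma adjusted p = 0.00409). Rps20 was at 68.6, 66.1 and 106 TPM in control, 127, 118 and 122 TPM under overexpression and 122, 121 and 91.8 TPM with EGCG, a log2 fold change against control of 0.64 ± 0.175 (SE; limma adjusted p = 0.0118). In Rps20 89.5% of the TPM lay in retained-intron transcripts, and the direction turned to -0.21 (limma adjusted p = 0.0311) when only its protein-coding transcript was counted.

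**Figure D2:**
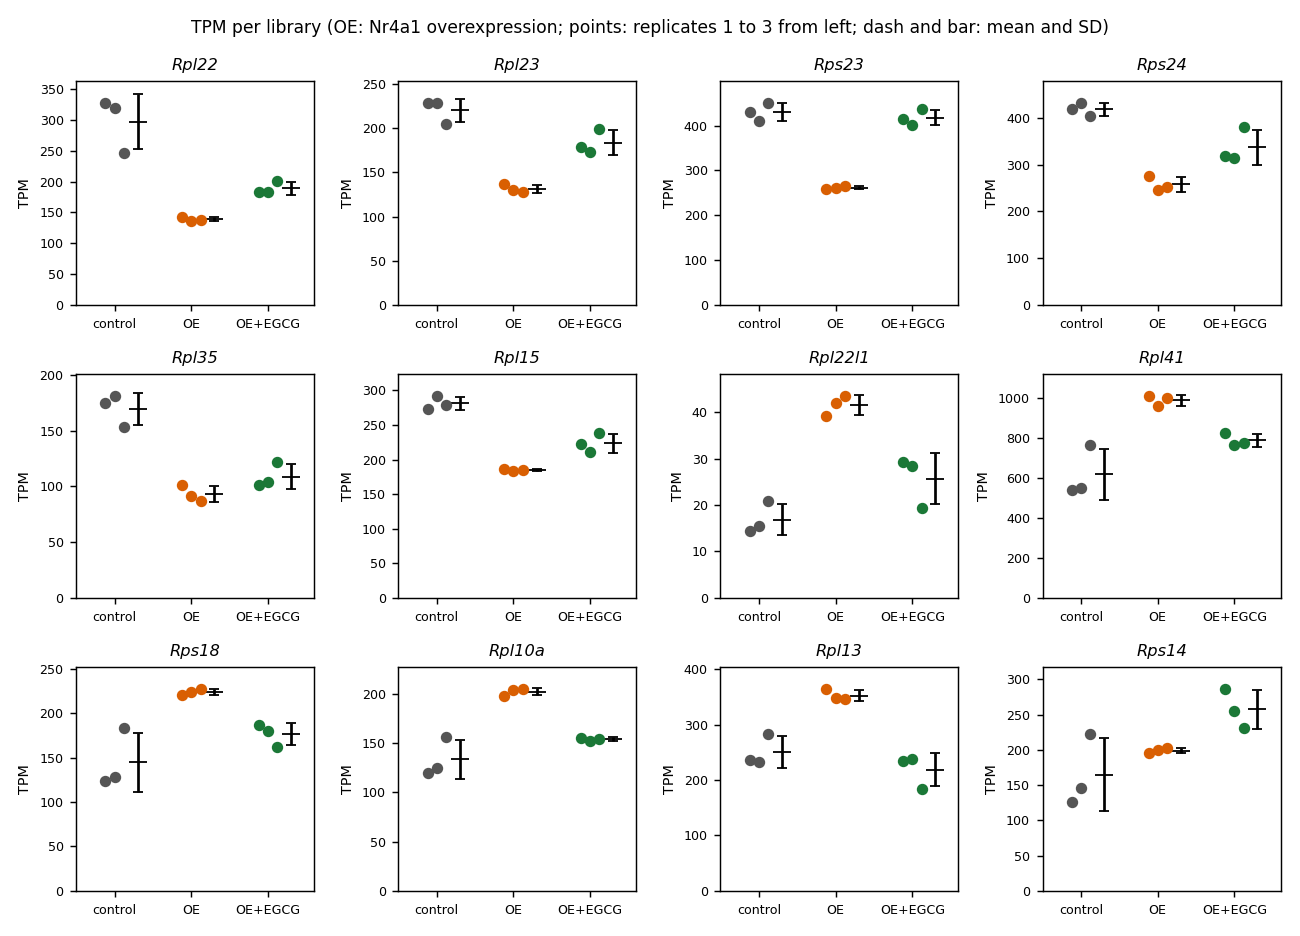
TPM in each library for 12 ribosomal protein genes, with the group mean and SD beside the points (n = 3; each panel has its own axis from 0; OE is Nr4a1 overexpression). Overexpression is the lowest group for Rpl22, Rpl23, Rps23, Rps24, Rpl35 and Rpl15 and the highest for Rpl22l1, Rpl41, Rps18, Rpl10a and Rpl13, while Rps14 is highest with EGCG.

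The second comparison asked how EGCG treatment differed from overexpression alone, and it shares the overexpression libraries with the first. Of the 81 genes 14 were higher and 16 lower with EGCG and 51 did not pass. That is 37.0% called, against 53% of all genes tested (18.8% higher and 34.1% lower), and the median log2 fold change was -0.02, against -0.09 for all genes. Of the small subunit genes 4 were higher and 3 lower, of the large subunit genes 10 were higher and 13 lower, and none of the 3 stalk genes was called, nor had any an unadjusted p under 0.05. The groups did not overlap for 54 of the 81 genes, against 64.6% of all genes. The split again moved with the scaling. Median-ratio scaling gave 25 higher and 8 lower, quantile normalization 27 and 10 and nuclear protein-coding TPM alone 36 and 6. The median log2 fold change of all genes in these fits was -0.0019, -0.019 and 0.028. With no filter on low values 12 were higher and 10 lower. The share of all genes called was not counted under these other settings, so their counts have no background beside them.

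Rps23 had the highest log2 fold change with EGCG, higher by 0.67 ± 0.0581 on the log2 scale against overexpression (SE; limma adjusted p = 2.48e-05). Rpl23 was higher by 0.48 ± 0.0706 (SE; limma adjusted p = 0.000509). Rpl36a, which has the paralog Rpl36al, was at 144, 161 and 174 TPM in control, 114, 108 and 113 TPM under overexpression and 151, 149.8 and 164 TPM with EGCG. The control and EGCG ranges overlapped and overexpression lay below both, with a log2 fold change of 0.47 ± 0.0747 for EGCG against overexpression (SE; limma adjusted p = 0.000775). Rpl22 was 0.44 ± 0.102 higher with EGCG (SE; limma adjusted p = 0.00586), so that its mean stood at 189 TPM between 139 TPM under overexpression and 297 TPM in control.

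In the other direction, Rpl22l1 was lower with EGCG by 0.69 ± 0.167 (log2 fold change -0.69; SE; limma adjusted p = 0.00699) and Rpl13 by 0.69 ± 0.111 (log2 fold change -0.69; SE; limma adjusted p = 0.000787). Rpl7l1 was lower by 0.60 (log2 fold change -0.60 ± 0.115 SE; limma adjusted p = 0.00209), to 15.8 ± 0.0586 TPM (SD, n = 3). Rpl27, of the large subunit, was at 122, 128 and 155 TPM in control, 201, 196 and 187 TPM under overexpression and 149, 158 and 139 TPM with EGCG. It was lower with EGCG by -0.39 ± 0.0903 on the log2 scale (SE; limma adjusted p = 0.00586), as was Rpl10a by -0.39 ± 0.0907 (SE; limma adjusted p = 0.00584). Nr4a1 was itself lower in the EGCG libraries, by a log2 fold change of -1.34 ± 0.125 (SE; limma adjusted p = 3.71e-05), and its part in these differences was not tested.

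The third comparison set EGCG upon Nr4a1 overexpression against untransfected control. Of the 81 genes 15 were higher, 12 lower and 54 not called, which is 33.3%, against 18.2% of all genes tested (11.1% higher and 7.1% lower). The median log2 fold change was 0.09, against 0.02 for all genes. Of the small subunit genes 8 were higher and 2 lower, and of the large subunit genes 7 were higher and 9 lower. In the stalk Rplp2, which recruits elongation factors together with Rplp1, was lower at a log2 fold change of -0.21 ± 0.0626 (SE; limma adjusted p = 0.0475). The groups did not overlap for 36 of the 81 genes, against 34.8% of all genes. These calls depended on which libraries entered the fit and on the fit itself. Without control replicate 3, 36 genes were higher and 12 lower. Without control replicate 1 or 2, or without EGCG replicate 1, 0 were higher and 4 lower, without EGCG replicate 2 the counts were 2 and 4, and without EGCG replicate 3 they were 9 and 12. In the fits with 0 higher, limma's unadjusted p was under 0.05 for 17 or 18 higher and 13 to 15 lower genes. A fit of only these 2 groups gave 0 higher and 4 lower (20 and 14 unadjusted), and no filter on low values gave 2 and 6. Scaling gave 8 and 12 (median-ratio), 20 and 5 (quantile) and 28 and 9 (nuclear protein-coding TPM alone). The median log2 fold change of all genes in these scaled fits was 0.0084, -0.00057 and 0.076. The share of all genes called was not counted in any of these other fits, so their counts have no background beside them.

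The 4 genes that were lower in each of these leave-one-out fits were Rpl22, Rpl35, Rpl14 and Rpl15. Rpl22 was lower than control by -0.64 ± 0.102 on the log2 scale (SE; limma adjusted p = 0.00643) and Rpl35 by -0.64 ± 0.0933 (SE; limma adjusted p = 0.00495). Rpl14, of the large subunit, was at 253, 261 and 224 TPM in control, 176, 164 and 174 TPM under overexpression and 174, 167 and 187 TPM with EGCG. The overexpression and EGCG ranges overlapped and control lay above both, with a log2 fold change of EGCG against control of -0.48 ± 0.0718 (SE; limma adjusted p = 0.00513). The share of Rpl14 TPM outside protein-coding transcripts was 31.8% ± 2.67 in control, 15.0% ± 1.96 under overexpression and 16.1% ± 3.93 with EGCG (SD, n = 3 each). Its coding transcripts thus fell less than the gene sum, though the call was kept on them alone. Rpl15 was lower by -0.33 ± 0.0584 (SE; limma adjusted p = 0.00853), but by only -0.02 (limma adjusted p = 0.853) where its protein-coding transcripts were counted alone. Rpl21, also of the large subunit, was lower by -0.32 ± 0.0796 (SE; limma adjusted p = 0.0264), a call lost without control replicate 1 or 2 or EGCG replicate 1 or 2.

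Among the genes called higher, Rps14 of the small subunit had the highest log2 fold change, followed by Rpl22l1 of the large subunit. Rps14, near the decoding centre, was at 126, 146 and 223 TPM in control, 195, 199 and 202 TPM under overexpression and 286, 255 and 231 TPM with EGCG. Each EGCG library lay above each control, but control replicate 3 was close, and the log2 fold change was 0.68 ± 0.179 (SE; limma adjusted p = 0.0326). Rps27, a zinc-binding protein of the small subunit, was at 377, 431 and 593 TPM in control, 541, 524 and 526 TPM under overexpression and 685, 674 and 594 TPM with EGCG. Control replicate 3 came within 1 TPM of EGCG replicate 3, and the log2 fold change was 0.50 ± 0.144 (SE; limma adjusted p = 0.043). Rps29, another zinc-binding protein, was higher than control by 0.42 ± 0.103 (SE; limma adjusted p = 0.0262), and Rps4x, encoded on the X chromosome, by 0.40 ± 0.0963 (SE; limma adjusted p = 0.0241). Rpl7 of the large subunit was higher by 0.24 ± 0.0557 (SE; limma adjusted p = 0.0205). The calls of Rps14, Rps27, Rps29, Rps4x and Rpl7 were each lost without control replicate 1, without control replicate 2 and without EGCG replicate 1. All but that of Rpl7 were also lost without EGCG replicate 2. That of Rps27 was also lost without EGCG replicate 3. The call of Rpl22l1 was lost without the same 4 libraries (log2 fold change 0.57 ± 0.167 SE; limma adjusted p = 0.0453), whose EGCG and control libraries overlapped.

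**Figure D3:**
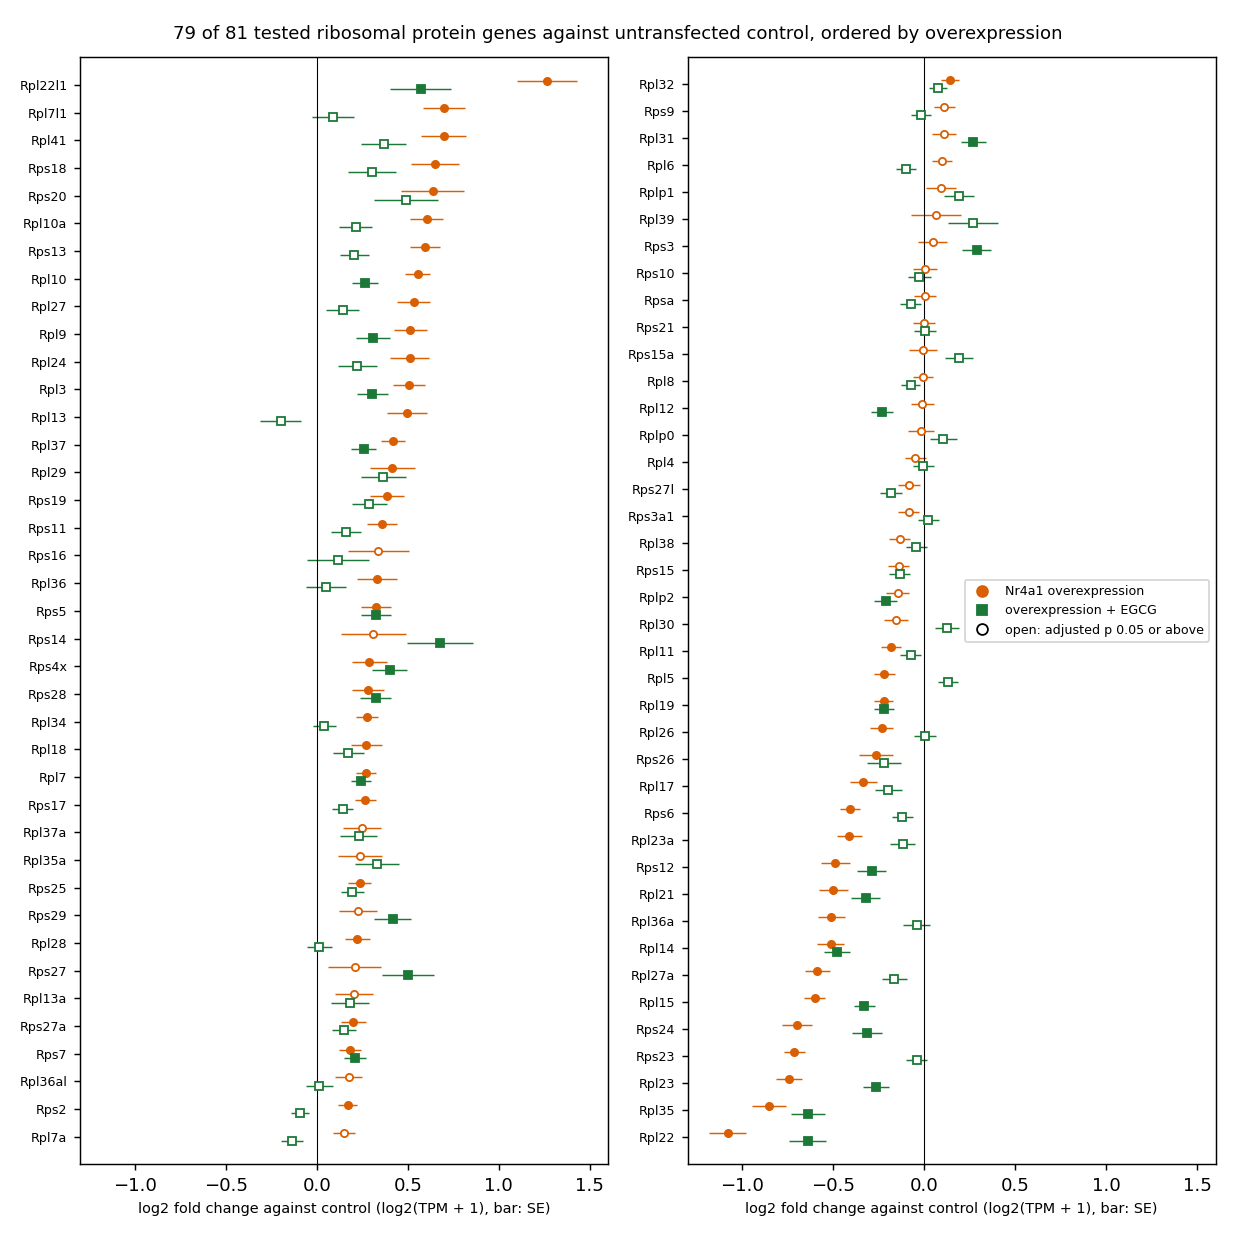
Log2 fold change against control with its SE for 79 of the 81 tested genes, ordered by overexpression, for Nr4a1 overexpression (circles) and EGCG upon overexpression (squares). Filled symbols passed the test and open ones did not. Both share the control libraries. Overexpression runs from -1.08 (Rpl22) to 1.27 (Rpl22l1) and EGCG from -0.64 to 0.68.

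Within the large subunit, the stalk genes Rplp0 and Rplp1 were not called in any comparison, and Rplp0 stayed between 196 and 234 TPM in all 9 libraries. Rpl5 and Rpl11, chosen here after their values were seen, carry the 5S rRNA into the large subunit. Both were lower with overexpression than in control, Rpl5 by a log2 fold change of -0.22 ± 0.0574 (SE; limma adjusted p = 0.00906) and Rpl11 by -0.18 ± 0.0556 (SE; limma adjusted p = 0.0188). Rpl5 was higher with EGCG than with overexpression by 0.35 ± 0.0574 (SE; limma adjusted p = 0.000892), while Rpl11 did not pass (0.11 ± 0.0556 SE; limma adjusted p = 0.132).

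Paralog pairs gave a comparison within each library, which no factor applied to a whole library can move. Rpl22l1 reached 4.40%, 4.85% and 8.45% of the TPM of Rpl22 in control, 27.4%, 30.7% and 31.5% with overexpression and 16.0%, 15.5% and 9.61% with EGCG. The 3 groups did not overlap, and the log2 ratio differed by 2.40 between overexpression and control, by -1.16 between EGCG and overexpression and by 1.24 between EGCG and control. Each of these has a two-sided exact permutation p of 0.1, the smallest that 3 against 3 libraries allow, so no such ratio can pass 0.05. Rpl22 protein is known to restrain Rpl22l1 in mice, which is background and was not tested here. Rpl7l1 stood at 9.85% ± 1.64 of Rpl7 in control, 13.5% ± 1.09 under overexpression and 8.82% ± 0.254 with EGCG (SD, n = 3 each), with overexpression above both other groups without overlap.

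The ratio of Rpl36al to Rpl36a was 104%, 94.2% and 78.3% in control, 157%, 146% and 141% with overexpression and 92.3%, 98.1% and 95.3% with EGCG. Overexpression did not overlap the other groups, and EGCG lay within the control range (exact permutation p = 0.1 against overexpression and 0.8 against control). Rpl36al itself did not pass in any comparison. Rps27l, a paralog that p53 is known to induce, stood at 15.5% ± 3.21 of Rps27 in control, at 12.5% ± 1.10 with overexpression, where the libraries overlapped control, and at 9.51% ± 0.814 with EGCG, below both (SD, n = 3 each; exact permutation p = 0.3 for overexpression and 0.1 for EGCG against control). Its own level did not pass in any comparison. Near-identical copies share reads, which the authors' estimation divided, so the levels of paralogs and of genes with many pseudogenes are less certain than those of others. The annotation holds 295 named pseudogenes of this family, and adding their TPM to the parent genes gave 31 higher and 20 lower in overexpression against control.

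**Figure D4:**
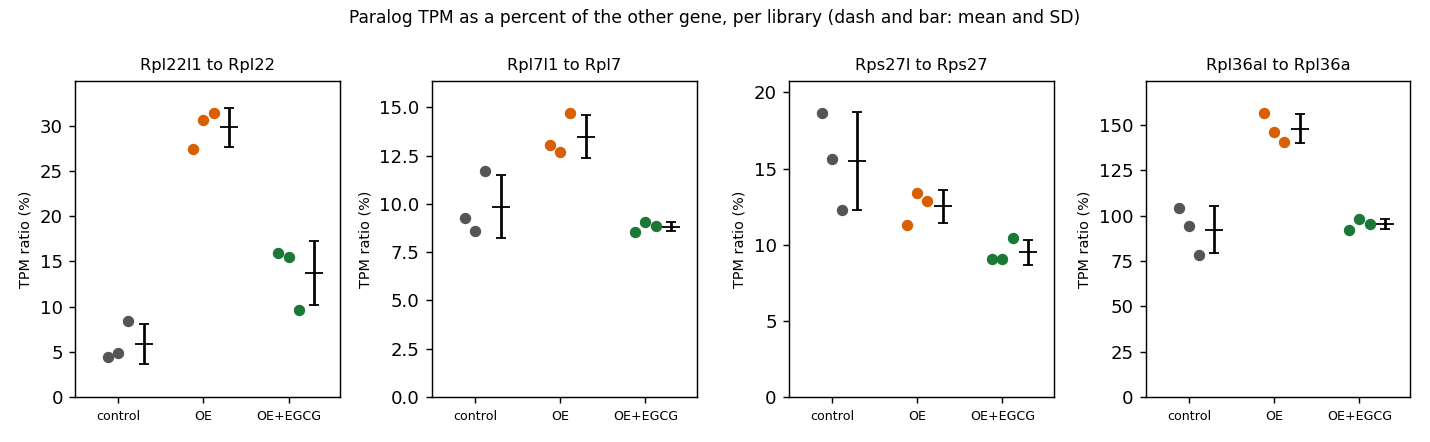
TPM of a paralog as a percent of its partner in each library for 4 pairs, with the group mean and SD beside the points (n = 3; each panel has its own axis from 0). Rpl22l1 to Rpl22 is 4.40% to 8.45% in control, 27.4% to 31.5% with overexpression and 9.61% to 16.0% with EGCG.

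Transcript values, as the authors deposited them, show where the gene sums come from. The 84 genes have 501 transcripts in the joined table, 235 of them annotated as protein coding. The median share of TPM outside protein-coding transcripts was 3.77%, and 56 genes were under 10%. Another 8 were over 50%, led by Rps16 (93.9%), Rps20 (89.5%), Rps23 (75.6%), Rpsa (74.8%) and Rpl13a (66.3%). For these genes the estimation placed most reads on transcripts annotated with retained introns, as targets of nonsense-mediated decay or as untranslated, and a gene sum is then no measure of the coding mRNA. Counting protein-coding transcripts alone gave 30 higher and 22 lower in overexpression against control, 16 and 19 in EGCG against overexpression and 16 and 14 in EGCG against control.

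In Rps23 the coding form Rps23-201 was at 94.1 ± 12.3 TPM in control, 72.4 ± 4.62 TPM under overexpression and 104 ± 4.64 TPM with EGCG, while the processed transcript Rps23-203 was at 275 ± 11.6, 154 ± 7.34 and 263 ± 14.4 TPM (SD, n = 3 each). Both forms were lowest with overexpression, and their libraries there did not overlap the other groups. In Rpl13a the coding form Rpl13a-207 was at 126, 140.2 and 69.7 TPM in control, 20.9, 0 and 0 TPM under overexpression and 0.02, 16.0 and 49.1 TPM with EGCG, while the retained-intron form Rpl13a-213 was at 152, 157 and 274, at 259.6, 253 and 275, and at 288, 265 and 274 TPM. The gene sum of Rpl13a did not pass in any comparison. An exact 0 for a form of so abundant a gene may be a failed estimate, so no fold is given. For Rps16 the coding form Rps16-201 was at 6.15 ± 1.95, 8.80 ± 0.851 and 8.14 ± 2.25 TPM (SD, n = 3 each), and for Rpsa the 3 group means of the leading form Rpsa-206 were 216, 216 and 207 TPM.

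Rps24 ends in alternative exons that give several proteins. Its main form Rps24-202 was at 391 ± 14.4 TPM in control, 228 ± 12.7 TPM under overexpression and 310.0 ± 36.0 TPM with EGCG, and Rps24-201 at 5.76 ± 2.93, 12.2 ± 1.45 and 6.06 ± 1.46 TPM (SD, n = 3 each). These forms thus lay in opposite order, Rps24-202 lowest and Rps24-201 highest with overexpression, without overlap between overexpression and the other groups. For Rpl22 and Rpl22l1 the leading coding forms Rpl22-201 (277 ± 43.5, 128 ± 3.34 and 171 ± 10.6 TPM) and Rpl22l1-201 (9.87 ± 1.04, 29.9 ± 1.22 and 16.2 ± 4.64 TPM; SD, n = 3 each) were lowest and highest with overexpression, as were the gene sums.

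Within the bounds of 30 of the 81 tested genes lies an annotated snoRNA or scaRNA gene on the same strand. SnoRNAs are small RNAs that guide rRNA modification. Whether these genes lie in introns was not checked. In overexpression against control 10 of the 30 were higher and 8 lower (median log2 fold change 0.06), against 22 higher and 12 lower of the 51 others (median 0.20). Those called were 60% and 66.7%, both near the 59.5% of all genes tested. In EGCG against overexpression 7 were higher and 8 lower in each set, 50% of the 30 and 29.4% of the 51, against 53% of all genes. In EGCG against control 33.3% of each set were called, against 18.2% of all genes. The difference between the sets was not tested. Transcript length and GC content ordered the changes weakly. Across the 81 genes the Spearman correlation of the log2 fold change with length was -0.04 for overexpression against control, -0.03 for EGCG against overexpression and -0.12 for EGCG against control, and with GC content 0.14, -0.27 and -0.08, given as descriptions across genes.

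Ribosomal proteins whose symbols fall outside the rule were read beside the members. Fau, which encodes Rps30 fused to a ubiquitin-like protein, was at 290.2, 306 and 333 TPM in control, 204, 195 and 204 TPM under overexpression and 271, 272 and 313 TPM with EGCG. Overexpression lay below both other groups, with a log2 fold change against control of -0.62 ± 0.0761 (SE; limma adjusted p = 0.000129) and of EGCG against overexpression of 0.50 ± 0.0761 (SE; limma adjusted p = 0.00059). Rack1, a scaffold on the small subunit, was higher with overexpression than in control by 0.33 ± 0.087 (SE; limma adjusted p = 0.0101), a call lost under quantile normalization and median-ratio scaling.

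Genes that build ribosomes were read next. The counts of these and the following lists stand against 59.5% of all genes called in overexpression against control (38.2% higher and 21.3% lower, median log2 fold change 0.10) and 53% in EGCG against overexpression (18.8% higher and 34.1% lower, median -0.09). Of 57 ribosome assembly factors 42 were higher and 3 lower with overexpression than in control (median log2 fold change 0.39), and 2 were higher and 38 lower with EGCG than with overexpression (median -0.36). Under the 3 other scalings (median-ratio, quantile and nuclear protein-coding TPM alone) the counts were 30 to 35 higher and 8 lower with overexpression. With EGCG against overexpression they were 3 to 6 higher and 29 or 30 lower. The share of all genes called was not counted under those scalings, here or for the lists that follow. Fbl, the methyltransferase of box C/D snoRNPs, was at 24.8 ± 0.591 TPM in control, 44.4 ± 0.896 TPM under overexpression and 27.5 ± 2.48 TPM with EGCG, and Rrp12, an export factor of pre-ribosomes, at 3.34 ± 0.269, 8.78 ± 0.251 and 5.02 ± 0.231 TPM (SD, n = 3 each). RNA polymerase I genes, which transcribe rRNA, counted 9 higher and 0 lower of 15 in the first comparison and 0 higher and 8 lower in the second by limma. The unadjusted p was under 0.05 for the same number of genes, 9 and 8. Those called were 60% and 53.3%, close to the shares of all genes, and the other scalings gave 6 to 8 higher and then 6 or 7 lower. Ribosomal protein chaperones counted 5 higher of 6 and then 5 lower of 6, and 3 or 4 higher and then 4 or 5 lower under the other scalings. The median of each of these 3 lists kept its sign in both comparisons under all 3 other scalings. No test of these lists against the ribosomal protein genes was made.

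The 78 mitochondrial ribosomal protein genes, which serve the separate ribosome of mitochondria, counted 49 higher and 8 lower with overexpression (median 0.30) and 5 higher and 47 lower with EGCG against overexpression (median -0.30). The other scalings gave 31 to 39 higher and 14 to 18 lower (median 0.17 to 0.22), then 7 to 13 higher and 31 to 35 lower (median -0.20 to -0.16). Translation initiation factors counted 20 higher and 1 lower of 31, then 0 higher and 23 lower by limma, with 27 at an unadjusted p under 0.05 and 1 of the 31 log2 fold changes above 0. The other scalings gave 16 to 19 higher and 6 to 9 lower, then 0 or 1 higher and 10 to 16 lower. For Eif1, which guards start codon choice, the levels were 122 ± 12.4, 259 ± 14.0 and 149 ± 9.05 TPM (SD, n = 3 each). The 18 elongation factors and other TOP genes, whose mRNAs share the start motif of the ribosomal protein genes, were called in both directions, with 5 higher and 5 lower with overexpression and 2 higher and 5 lower with EGCG against overexpression. Those called were 55.6% and 38.9%, both under the shares of all genes. The balance depended on the scaling, since each of the 3 others gave 3 higher and 9 lower with overexpression. For EGCG against overexpression they gave 6 and 4 (median-ratio), 8 and 3 (quantile) and 6 and 2 (nuclear protein-coding TPM alone), and the median went from -0.06 to between 0.04 and 0.15. Among them Eef1a1 was higher with overexpression (log2 fold change 0.40 ± 0.0727 SE; limma adjusted p = 0.00122), whereas Eif4b (-0.47 ± 0.0609 SE; limma adjusted p = 0.00017) and Eef2 (-0.22 ± 0.049 SE; limma adjusted p = 0.0045) were lower.

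A list of 20 genes held regulators of mTORC1 and of TOP mRNA translation, and also the transcription factor genes Myc, Mycl, Mycn and Max. Of these 20 genes 17 passed the low-value filter and were tested. The rest, Myc, Mycl and Mycn, stayed under 1 TPM in every library. With overexpression 8 were higher and 2 lower, and with EGCG against overexpression 2 were higher and 5 lower. Those called were 58.8%, near the share of all genes, and 41.2%, under it. This split also moved with the scaling, to 5 and 6 (median-ratio), 6 and 4 (quantile) and 8 and 5 (nuclear protein-coding TPM alone), then to 3 and 3, 3 and 3 and 4 and 3. The pair lower with overexpression were Ddit4, an inhibitor of mTORC1, and Eif4ebp1, a repressor of cap-dependent initiation. Tsc2, Sesn2, Tsc1 and Eif4ebp2, which are also inhibitors or repressors, were among the 8 higher. Their log2 fold changes were 0.62, 0.44, 0.37 and 0.26 (limma adjusted p = 0.000881, 0.00198, 0.00297 and 0.0133). With EGCG against overexpression Sesn2 and Tsc2 were lower, by log2 fold changes of -0.79 and -0.40 (limma adjusted p = 8.69e-05 and 0.0103). Tsc1 and Eif4ebp2 did not pass there. Ddit4 was at 29.5, 29.5 and 33.1 TPM in control, 14.2, 14.4 and 13.5 TPM under overexpression and 45.2, 44.4 and 41.9 TPM with EGCG, a log2 fold change of -1.08 ± 0.0604 and then 1.58 ± 0.0604 (SE; limma adjusted p = 1.9e-06 and 2.95e-07). Mtor itself was at 7.28 ± 0.505, 9.95 ± 0.365 and 10.5 ± 0.544 TPM (SD, n = 3 each). These are mRNA levels, and TOP mRNA translation was not measured.

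**Figure D5:**
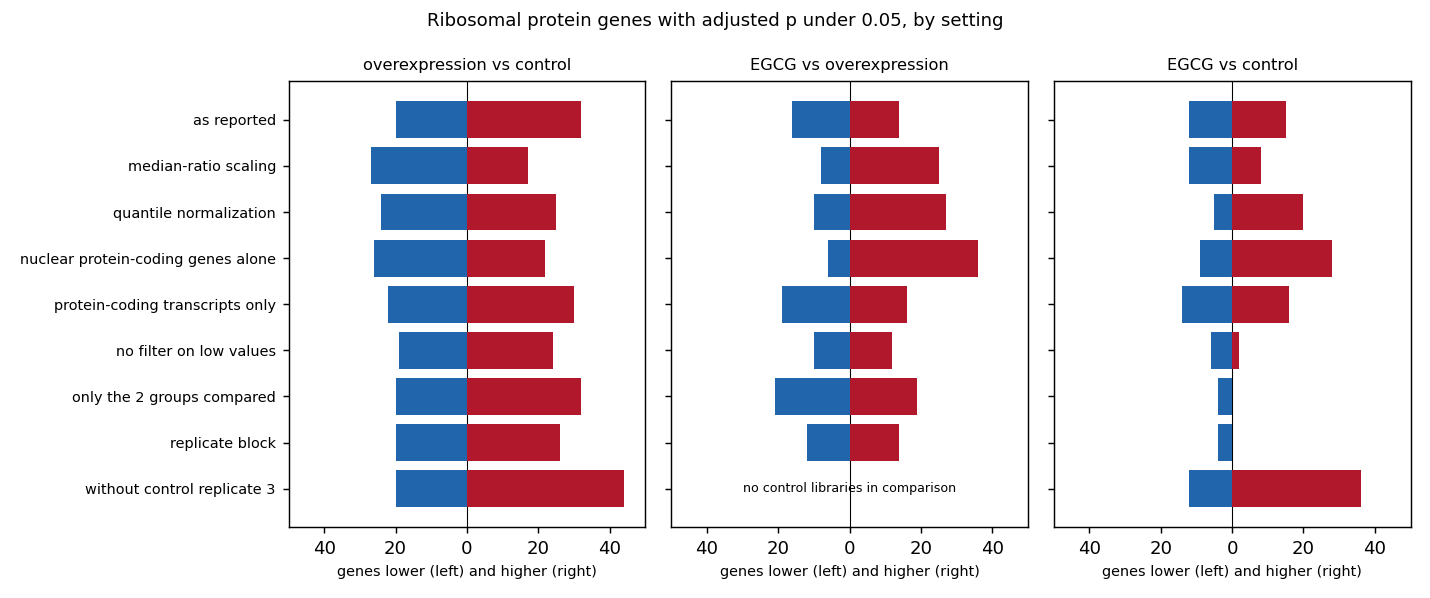
Number of ribosomal protein genes called higher (right) and lower (left) in each of the 3 comparisons under the reported fit and 8 other settings. Overexpression against control is 32 higher and 20 lower as reported and 17 and 27 with median-ratio scaling, and EGCG against control ranges from 0 and 4 to 36 and 12. The last setting leaves out a control library and does not enter EGCG against overexpression. The share of all genes called was not counted for the 8 other settings.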

How the data were processed

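Per the labels' protocols, stranded libraries were made from total RNA isolated with RNeasy columns. The authors deposited TPM per Ensembl transcript, made with STAR 2.7.1a, RSEM 1.2.31, cutadapt 2.8, bcl2fastq 2.20 and FastQC 0.11.9 on GRCm39, per the submitters' processing notes. The sources used here do not give the annotation release or strand setting. Of 142435 transcript identifiers 138346 (97.1%) matched GENCODE M21, an older build used only for names, biotypes and gene membership. The 4089 unmatched ones held 18.0% to 20.6% of a library's TPM and may include forms of these genes.

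TPM was summed per gene, and the 11950 genes that reached 1 TPM in 3 or more libraries were tested with limma 3.58.1 (R 4.3.3, variance trend) on log2(TPM + 1), which understates changes of low genes. All 9 libraries entered 1 fit, and p-values were Benjamini-Hochberg adjusted over all genes of a comparison. The fit was tested on simulated data. Ratios were tested by exact permutation (Python 3.11.15). Groups came from the sample titles. The members, gene lists, tests and alternatives were chosen with earlier results of these data known. Genes named are the 5 called members with the highest and the lowest fold change and the smallest adjusted p in each comparison, the 5 most and least abundant, the paralogs, the untested members, and up to 4 called genes of each list; some of them are not reported here. Further inhibitors and repressors among the mTORC1 regulators were named after their values were seen. Promoter sequences and coordinates come from RefSeq, build GRCm38.p6.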

Additional observations from a re-analysis of the deposited data

How the results depend on the processing

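Of 45 results of single genes chosen by the naming rule that passed the test, 28 kept direction and call in every alternative run and 17 lost the call in at least 1. In 1 the direction reversed, Rps20 in overexpression against control at -0.21 on protein-coding transcripts only. Median-ratio scaling left 17 genes higher in overexpression against control, and gave 25 higher and 8 lower in EGCG against overexpression and 8 higher in EGCG against control. Quantile normalization gave 27 higher and 10 lower in EGCG against overexpression and 5 lower in EGCG against control. Nuclear protein-coding genes alone gave 36 higher and 6 lower in EGCG against overexpression and 28 higher in EGCG against control. With no filter on low values 10 were lower in EGCG against overexpression, and 2 higher and 6 lower in EGCG against control, where a fit of only the 2 groups compared gave 0 higher and 4 lower. The share of all genes called was not counted under any of the alternative settings, here or below, and the cause was not tested.

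The median log2 fold change of the genes, 0.14, -0.02 and 0.09 in the 3 comparisons, went to 0.0221 and 0.0862 in the first and second under median-ratio scaling, to 0.0627 and 0.0942 under quantile normalization, and to 0.0555, 0.134 and 0.155 on nuclear protein-coding genes alone. In EGCG against control it was 0.044 on protein-coding transcripts only. Leaving out 1 library gave 22 to 44 higher and 18 to 21 lower (median 0.10 to 0.17) in overexpression against control, 13 to 14 higher and 11 to 13 lower (median -0.03 to 0.01) in EGCG against overexpression, and 0 to 36 higher and 4 to 12 lower (median 0.0439 to 0.171) in EGCG against control. The ribosomal protein genes took 2.34%, 2.34% and 2.41% of the TPM of all joined genes in control, overexpression and EGCG. With named pseudogenes added, they took 8.65% and 9.77% of nuclear protein-coding TPM in overexpression and EGCG. Without pseudogenes and without 1 library each, their share of nuclear protein-coding TPM ranged from 8.32% to 8.88% in control. It ranged from 8.32% to 8.41% with overexpression and from 9.29% to 9.44% with EGCG.

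Same-numbered deviations from the group means correlated at -0.02 to 0.21, and different-numbered ones at -0.24 to 0.12. The highest value of each of the 3 comparisons (0.15, 0.21 and 0.09) was a same-numbered one. Deviations from a shared group mean depend on each other, so these values cannot settle whether the replicate numbers of the titles pair the libraries. With the replicate number as a block, 26 genes were higher and 20 lower in overexpression against control, 14 and 12 in EGCG against overexpression and 0 and 4 in EGCG against control, where limma's unadjusted p was under 0.05 for 22 higher and 15 lower genes. TPM holds no depth, so low counts cannot be told from low expression.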
